A study of Mus musculus with 15 samples.

Results

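The 9 genes described here encode the machinery that starts apoptosis and the proteins that hold it back: the death receptor Fas and its adaptor Fadd, the initiator caspase Casp8 and its inhibitor Cflar, the apoptosome scaffold Apaf1 and its caspase Casp9, and the inhibitors of apoptosis Xiap, Birc2 and Birc3. They were chosen by name, as the probe sets with a single platform symbol among these 9, out of 19452 genes measured by such probe sets. Of 12 such probe sets, 3 belonged to Cflar and 2 to Birc2, and for each gene the brightest one at 0 min, by its mean over 3 arrays, was taken. In all 15 arrays, RNA came from proliferating C2C12 (LKO1) myoblasts, a mouse muscle precursor line that carries an empty lentiviral vector and was kept below 70% confluency in medium with puromycin. The cells had spent 30 min in 8 µg/mL actinomycin D, which blocks transcription, and were collected 0, 10, 50, 110 or 230 min later in 3 replicate time courses, so that 1 array was hybridised for each time in each time course. No array of cells without actinomycin D was analysed here, so 0 min is itself a sample after inhibition. The time courses were repeats of the experiment, and separate cultures are not named in the sources. The p-values of the linear fits reflect the scatter of the 15 arrays about the fit, after level differences between replicates were allowed for. Those of the permutation tests reflect the order of times within the 3 time courses.

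Death receptors such as Fas gather the adaptor Fadd, which brings Casp8 molecules together so that they activate each other. Cflar (c-FLIP) resembles Casp8 and takes its place in that complex. In the mitochondrial pathway, cytochrome c released from mitochondria binds Apaf1, which assembles into the apoptosome and activates Casp9. Xiap binds and blocks caspases directly, whereas Birc2 (cIAP1) and Birc3 (cIAP2) are ubiquitin ligases of TNF receptor complexes. Short-lived mRNAs and proteins among the inhibitors, above all Cflar, are well known from work on transcription inhibitors and cell death, and myoblasts are a cell type in which part of the population dies during differentiation.

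Each value is a linear ratio of a probe set to the 5th percentile of its array, so a ratio of 1.00 marks the dim end of the array. A probe set near 1.00 therefore had little room to fall, and ratios of different probe sets are not compared as levels. Whether background was subtracted is not given in the sources used here. A level filter, which asked for a ratio over the array median on 2 or more of the 3 arrays at 0 min, was passed by 12544 of 25175 probe sets and by 7 of the 9 members, all but Fas and Birc3. Most transcripts fell with time. The 75th percentile of the arrays was 7.80 to 9.81 at 0 min and 2.89 to 4.63 at 230 min, the 110 min array of replicate 1 (3.90) lay below the 230 min array of the same time course, and replicate 2 at 230 min was the lowest. These last 2 are called below the 2 arrays that stood apart. The cell label was checked at 0 min. The 5 myoblast markers measured, among them Myod1 and Des, all passed the filter, with mean ratios of 5.46 to 42.3. Of 6 myotube genes 5 passed (means of 2.30 to 12), and of 3 macrophage markers Cd68, a lysosomal protein, passed at 2.90, while Ptprc and Adgre1 stood at 1.30 and 1.25. The endothelial markers were at 1.59 and 1.62 and the adipocyte markers at 1.28 and 2.13.

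All 9 transcripts fell over the 230 min, and Birc3 fell least. In the limma fit of log2 ratio against time, with Benjamini-Hochberg adjustment over all probe sets, the slope was negative at adjusted p under 0.05 for 9 of 9 members, against 75.8% of all probe sets, so that this count by itself sets the members apart from nothing. The slopes ran from -0.37 log2 per hr for Cflar to -0.066 for Birc3, and the median slope was -0.14 over all probe sets and -0.25 over those that passed the level filter. In 8 of 9 members every 230 min array lay below every 0 min array, which held for 71.7% of all probe sets. The exception was Casp8. These directions are those of the deposited scale: dividing each array by its median instead left 5 members called as falling, with 5385 probe sets falling and 10142 rising in all, and dividing by its 75th percentile left 0, with 1904 falling and 18661 rising. Under the last scaling the slopes of Casp8, Casp9, Birc3, Xiap and Fas were positive.

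**Figure D1:**
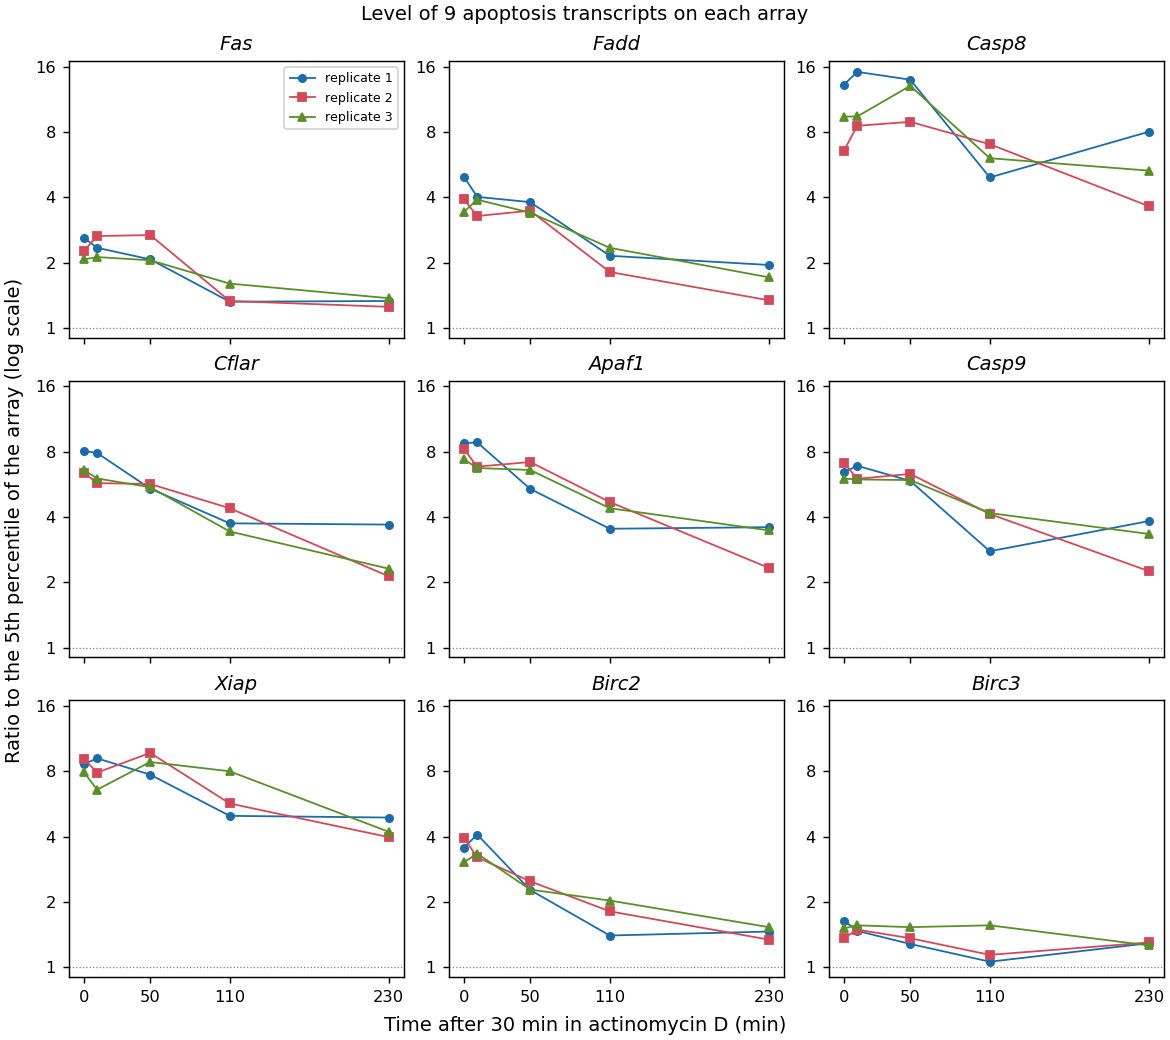
Ratio to the 5th percentile of the array (log scale) against time after inhibition, in min, for each of the 9 transcripts, with 1 line per replicate time course and a dotted line at 1. Every transcript but Casp8 ended with all 3 arrays below its 0 min arrays, and Birc3 lay close to the dotted line throughout.

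In the death receptor arm, Fas, the receptor for Fas ligand, was dim. Its ratio was 2.60, 2.26 and 2.07 at 0 min in replicates 1 to 3 and 1.33, 1.25 and 1.37 at 230 min. The arrays at 10 min (2.34, 2.65 and 2.12) and 50 min (2.07, 2.68 and 2.05) covered about the same range as those at 0 min, and the drop lay between 50 and 110 min (1.32, 1.33 and 1.60). The slope was -0.24 ± 0.04 log2 per hr (SE; adjusted p = 0.000116).

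Fadd, the adaptor between receptor and caspase, fell further. It measured 4.98, 3.91 and 3.43 at 0 min, 2.15, 1.81 and 2.34 at 110 min, and 1.95, 1.34 and 1.71 at 230 min. At 10 min (4.02, 3.28 and 3.90) and 50 min (3.80, 3.47 and 3.40) its arrays still overlapped those at 0 min. Its slope was -0.35 ± 0.04 (adjusted p = 3.02e-06), and 41.1% ± 8.0 (SD, n = 3 time courses) of the 0 min ratio was left at 230 min.

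Casp8, the initiator caspase of the death receptor pathway, was at or above its 0 min level in all 3 time courses at 10 and 50 min before it dropped. The ratios at 0 min spread widely, at 13.2, 6.57 and 9.43. Those at 10 min were 15.2, 8.55 and 9.44, with replicate 3 the same as at 0 min, and those at 50 min were 14.0, 8.92 and 13.1. Relative to the 0 min array of the same time course, the 50 min arrays were at 105%, 136% and 139%. By 110 min the ratios were 4.94, 7.03 and 6.06, and at 230 min 8.03, 3.64 and 5.31, where replicate 1 was above its own 110 min array and above replicate 2 at 0 min. In every time course 55.4% to 60.7% was left at 230 min, so the overlap between the groups came from the differing starting levels. The change from 0 to 50 min, a contrast chosen after the values were seen, was 1.26-fold and did not pass the limma test (log2 change 0.33 ± 0.24, adjusted p = 0.758), and only 0.389% of probe sets had a higher one. With the arrays centred on the median of probe sets passing the level filter, it was 1.41-fold (adjusted p = 0.308). Over the whole course the slope of Casp8 was -0.28 ± 0.07 (adjusted p = 0.00215).

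Cflar, the inhibitor that competes with Casp8, had the steepest slope of the 9, at -0.37 ± 0.04 (adjusted p = 1.54e-06). Its brightest probe set (10346562) measured 8.07, 6.41 and 6.59 at 0 min and 3.69, 2.13 and 2.31 at 230 min. In between it declined step by step, with 7.89, 5.73 and 6.02 at 10 min, 5.41, 5.68 and 5.49 at 50 min, and 3.74, 4.39 and 3.43 at 110 min. From 50 min on, every array lay below every 0 min array. Of all probe sets, 13.1% had all 50 min arrays below all 0 min arrays, and 56.9% had all 110 min arrays below them. At 50 min 79.7% ± 11.2 was left, at 110 min 55.6% ± 11.5 and at 230 min 38.0% ± 6.75 (SD, n = 3). Cflar and Casp8 start next to each other on mouse chromosome 1, with 1 annotated gene, Gm39646, starting between them. Their slopes differed by 0.096 log2 per hr, Cflar being the steeper in 3 of 3 time courses, and this did not pass the exact permutation test (adjusted p = 0.239).

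In the mitochondrial arm, the fitted slope of Apaf1 was near that of the brightest Cflar probe set, and that of Casp9 was shallower. Apaf1, the scaffold of the apoptosome, measured 8.76, 8.22 and 7.38 at 0 min, 5.39, 7.17 and 6.59 at 50 min, 3.53, 4.69 and 4.39 at 110 min, and 3.59, 2.33 and 3.47 at 230 min. At 10 min it was at 8.83, 6.83 and 6.73, and from 50 min on no array reached the lowest 0 min array. This held for 13.1% of all probe sets at 50 min and for 56.9% at 110 min. The slope was -0.37 ± 0.04 (adjusted p = 6.61e-06), and 38.8% ± 9.53 was left at 230 min. Casp9, the caspase that Apaf1 activates, held its level up to 50 min, where 92.9% ± 5.0 was left. It measured 6.43, 7.11 and 6.01 at 0 min, 6.89, 6.0 and 5.96 at 10 min, and 5.87, 6.32 and 5.92 at 50 min. The later arrays were all lower, with 2.78, 4.13 and 4.17 at 110 min and 3.83, 2.25 and 3.34 at 230 min, and replicate 1 was higher at 230 than at 110 min. The slope of Casp9 was -0.31 ± 0.05 (adjusted p = 8.43e-05).

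Of the inhibitors of apoptosis, Xiap, which blocks caspases by binding them, was still at its starting level at 50 min. Its ratios were 8.64, 9.14 and 7.93 at 0 min, 9.19, 7.90 and 6.59 at 10 min, and 7.73, 9.74 and 8.84 at 50 min. At 110 min replicate 3 was still at 8.01, within the 0 min range, while replicates 1 and 2 were at 4.99 and 5.69. All were lower at 230 min, at 4.90, 3.98 and 4.21, with 51.1% ± 6.80 left. The slope was -0.26 ± 0.04 (adjusted p = 0.000112).

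Birc2 (cIAP1) was already lower at 50 min. The ratios were 3.56, 3.96 and 3.05 at 0 min, 4.09, 3.21 and 3.34 at 10 min, and 2.27, 2.49 and 2.28 at 50 min, with no overlap between the 50 min arrays and any earlier one. Of all probe sets, 13.1% had all 50 min arrays below all 0 min arrays. The ratios of Birc2 were 1.40, 1.81 and 2.03 at 110 min and 1.46, 1.34 and 1.53 at 230 min. The slope was -0.35 ± 0.05 (adjusted p = 2.06e-05), and 41.7% ± 8.18 was left at 230 min.

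Birc3 (cIAP2), the closest relative of Birc2 and its neighbour on mouse chromosome 9 with 0 annotated genes starting between them, was near the floor of the arrays from the start. It measured 1.64, 1.36 and 1.51 at 0 min, 1.47, 1.49 and 1.56 at 10 min, and 1.28, 1.36 and 1.53 at 50 min. At 110 min replicates 1 and 2 were at 1.06 and 1.14 and replicate 3 at 1.56, and at 230 min the ratios were 1.29, 1.30 and 1.26. The slope of -0.066 ± 0.03 was called at adjusted p = 0.0469, and it was not called without any 1 of the replicates (adjusted p = 0.105, 0.0948 and 0.186 without replicates 1, 2 and 3) nor without the replicate block (0.0520). Dividing arrays by their median gave a slope of 0.12 for Birc3 (adjusted p = 0.0035). How far this slope is set by the dimness of the probe set was not tested.

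**Figure D2:**
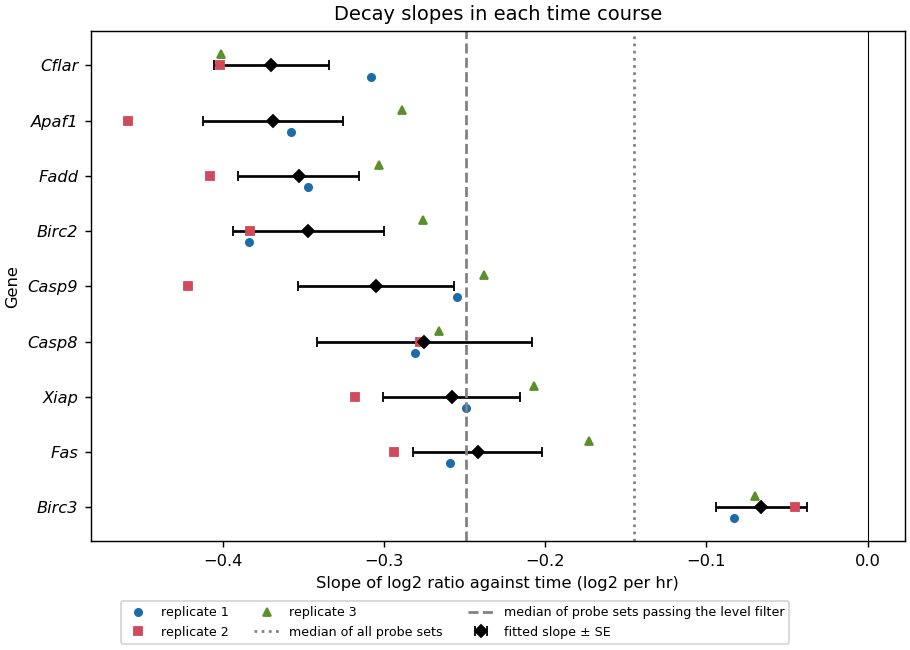
Slope of log2 ratio against time (log2 per hr) for each transcript: black diamonds with bars are the fitted slope ± SE, coloured symbols the slope in each replicate time course, and vertical lines the median of all probe sets (-0.14, dotted) and of those passing the level filter (-0.25, dashed). Cflar, Apaf1, Fadd, Birc2 and Casp8 lay left of the dashed line in all 3 time courses, and Birc3 lay to the right of both.

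Because nearly all expressed transcripts fell, each slope was also measured against the other transcripts of the same array. The first reference was the median level of the probe sets that passed the level filter. It fell at -0.32 log2 per hr, more steeply than the median slope of those probe sets. This level lay near the 75th percentile of each array (9.84 against 9.81 for replicate 1 at 0 min). The fit therefore nearly repeats the scaling by the 75th percentile above and is not a separate check. Against this first reference 0 of 9 members were called faster, where 7.54% of all probe sets were. The same fit gave 0 faster at an unadjusted p under 0.05. The nearest to a call were Apaf1 (-0.051, adjusted p = 0.112) and Cflar (-0.053, adjusted p = 0.134). The members called slower were 2 of 9, Birc3 (0.25 ± 0.04, adjusted p = 5.32e-06) and Fas (0.076 ± 0.03, adjusted p = 0.0415), where 74.2% of all probe sets were. Those 2 were the dim members that failed the level filter. The call of Fas was lost without any 1 of the replicates, with adjusted p of 0.0534, 0.0770 and 0.215 without replicates 1, 2 and 3.

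With a second reference, chosen after the data were seen, arrays were centred on the median change of the same probe sets rather than on their median level. Against this typical transcript Cflar (-0.11, adjusted p = 0.00387), Apaf1 (-0.11, adjusted p = 0.00226) and Fadd (-0.093, adjusted p = 0.00864) were called faster and Birc3 (0.19, adjusted p = 7.84e-05) was called slower. Of all 25175 probe sets, 3101 were called faster and 15019 slower by the same fit. Birc2 was at -0.088 (adjusted p = 0.0504), and Casp8, Casp9, Xiap and Fas were within 0.046 of the reference. So whether the steepest members count as faster than other expressed transcripts turned on which reference was taken. As a description, 17.7% of the probe sets that passed the filter had a steeper slope than Cflar, 18.0% than Apaf1, 20.8% than Fadd, 21.8% than Birc2 and 98.5% than Birc3.

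The members could also be compared with each other, as the ratio of 2 transcripts within an array does not depend on how the array was scaled. Of 36 pairs, 9 differed in slope at adjusted p under 0.05 in the two-sided exact permutation test over times within time courses. In 7 of the 9 one partner was Birc3, which was called slower than each other member except Casp8. Birc3 also fell more slowly than Casp8 in 3 of 3 time courses (Casp8 minus Birc3, -0.209 log2 per hr), without a call (permutation test, adjusted p = 0.053). Against its neighbour Birc2 the difference was 0.28 log2 per hr, in the same direction in 3 of 3 time courses (exact permutation test, adjusted p = 0.000188). This was the brightest probe set of Birc2, and the dimmer one, with a slope of -0.18, was not compared with Birc3. Against Cflar the difference was 0.31 (adjusted p = 0.000271). The remaining 2 pairs set Fas against the molecule it recruits, Fadd (0.11, adjusted p = 0.00244), and against Apaf1 (0.13, adjusted p = 0.0319), and Fas fell more slowly in 3 of 3 time courses in both. All 9 pairs thus held Birc3 or Fas, the dim members that failed the level filter. How far their dimness set these differences was not tested.

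Among the 7 members that passed the level filter, 0 of the pairs were called by the exact permutation test, a grouping made after the values were seen, and with a pseudocount of 1, without replicate 1, or without the 2 arrays that stood apart, it was 1. The widest gaps there were between Xiap and Cflar, 0.11 log2 per hr with Cflar steeper in 3 of 3 time courses (unadjusted p = 0.0304, adjusted p = 0.0811, permutation test), and between Xiap and Apaf1, 0.11 with Apaf1 steeper in 3 of 3 (unadjusted p = 0.0315, adjusted p = 0.0811, permutation test). Casp9 and Apaf1, partners in the apoptosome, differed by 0.064 with Apaf1 steeper in 3 of 3 (unadjusted p = 0.0183, adjusted p = 0.055, permutation test). At the other end, the slopes of Cflar and Apaf1 differed by 0.0018 with the time courses ranging from -0.11 to 0.058. A difference that misses the threshold does not show equal decay.

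**Figure D3:**
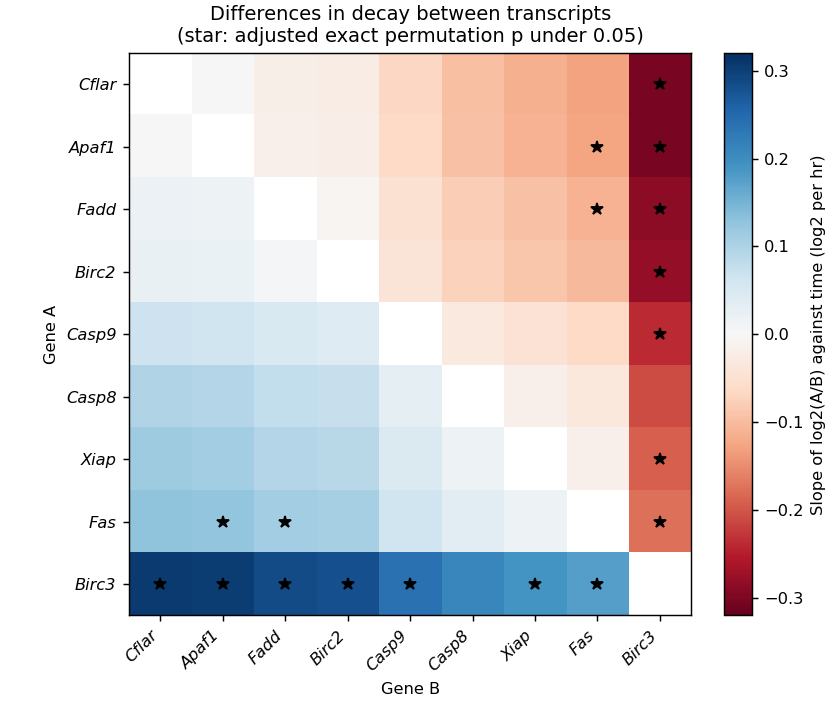
Slope of log2(A/B) against time (log2 per hr) for every pair of the 9 transcripts, gene A in rows and gene B in columns, ordered by slope; red means that A fell faster and a star marks an adjusted exact permutation p under 0.05. The stars lie in the row and column of Birc3, except for the pairs of Fas with Fadd and with Apaf1.

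The interval in which members were called lower was that between 50 and 110 min. There, 8 of 9 members were called lower by limma, all but Birc3, where 35.8% of all probe sets were called lower. Casp8 changed most, to 0.506-fold (log2 change -0.98 ± 0.24, adjusted p = 0.0113), followed by Fadd at 0.588-fold (adjusted p = 0.00267), Casp9 at 0.602-fold (adjusted p = 0.0162) and Fas at 0.627-fold (adjusted p = 0.006). The median change of the probe sets that passed the level filter was -0.61 on the log2 scale over the same interval, against -0.53 for Cflar and -0.52 for Xiap. It was not the largest step of every member: Cflar changed by -0.54 from 110 to 230 min, and Birc2 by -0.59 from 10 to 50 min against -0.44 from 50 to 110 min. The count of members called from 50 to 110 min was 5, 5 and 2 without replicates 1, 2 and 3, 5 without the 2 arrays that stood apart, 1 with arrays divided by their median and 0 with arrays divided by their 75th percentile. Members that lost their call this way were not shown to be stable in this interval.

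In the other intervals limma called no member. From 0 to 10 min it called 0 of 9 lower (0% of all probe sets). At an unadjusted p under 0.05, in either direction, it gave 0 members and 630 of all 25175 probe sets. From 10 to 50 min it called 0 of 9 (0.0278% of all probe sets). At an unadjusted p under 0.05 it gave 1 member, Birc2, and 922 of all 25175 probe sets. The change of Birc2 over that interval was 0.665-fold (log2 change -0.59 ± 0.16, adjusted p = 0.388 by limma). From 110 to 230 min it called 0 of 9 (0.0119% of all probe sets). At an unadjusted p under 0.05 it gave 4 members and 2837 of all 25175 probe sets. Those 4 were Cflar, Apaf1, Xiap and Fadd, all lower, of which Cflar changed most (0.686-fold, limma adjusted p = 0.217). No member was called higher in any interval.

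Half-lives were fitted as an exponential in each time course, and a fit was taken as reliable when the p of its decay constant was under 0.05 and its 95% profile interval was narrower than 2 times the half-life. Reliable fits in at least 2 of 3 time courses were found for 3 of 9 members, Cflar, Apaf1 and Casp9, against 5.84% of all probe sets and 11.2% of those that passed the level filter. For the brightest probe set of Cflar the half-life was 147, 171 and 143 min in replicates 1 to 3, a mean of 2.56 ± 0.25 hr (SD, n = 3). Replicate 1 was the one that was not reliable. The other Cflar probe sets, 10346551 and 10497931, gave means of 266 and 329 min, with reliable fits in 1 and 0 time courses. The half-life of Apaf1 was 116, 144 and 198 min (2.55 ± 0.70 hr). That of Casp9 was 189, 154 and 251 min (3.29 ± 0.82 hr). Both were again without a reliable fit in replicate 1. The ranges of the used probe sets of Cflar, Apaf1 and Casp9 overlapped. The median over reliable probe sets, which were 5.84% of all, was 2.26 hr and need not be that of a typical transcript.

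For the other 6 members the means are descriptions. They were 142 ± 46.2 min for Birc2, 161 ± 31.8 min for Fadd, 231 ± 51.4 min for Casp8, 246 ± 84.9 min for Fas and 263 ± 97.9 min for Xiap. Of these fits only 1, that of Fas in replicate 3 (344 min, 95% interval 216 to 729 min), was reliable. Birc3 gave 614, 1249 and 917 min, all far longer than the course of 230 min, and no fit had an upper bound on its interval. The half-lives themselves moved with the scaling. With arrays divided by their median the means were 331 min for Cflar, 334 min for Apaf1 and 611 min for Casp9, and with the 75th percentile none was under 1392 min. With a constant floor in the curve they were 75.4 min for Cflar (2 time courses), 276 min for Apaf1 and 292 min for Casp9. The reliable fits of Cflar, Apaf1 and Casp9 were those of replicates 2 and 3. As 2 reliable fits were still required, the count was bound to be 3 without replicate 1 and 0 without replicate 2 or 3. It was 2 with the mean of all probe sets of a gene and 1 without the 2 arrays that stood apart. With a constant floor added to the curve it was 0.

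**Figure D4:**
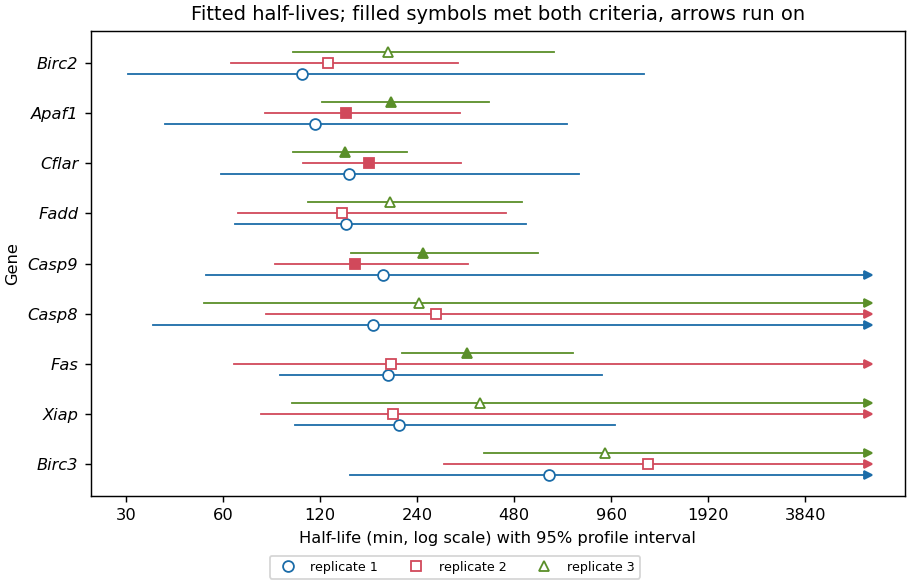
Half-life (min, log scale) with its 95% profile interval for each transcript in each replicate time course; filled symbols are reliable fits, open ones are not, and arrows mark intervals that run past the plotted range. Filled symbols occur in 2 time courses for Cflar, Apaf1 and Casp9 and in 1 for Fas.

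Probe sets of the same gene did not fall alike. The other probe sets of Cflar, 10346551 and 10497931, measured 7.01, 5.11 and 5.22 and 6.0, 4.80 and 4.27 at 0 min. At 230 min they were at 3.65, 3.00 and 3.34 and at 3.92, 2.69 and 3.37. Their slopes were -0.23 (adjusted p = 0.00019) and -0.18 (adjusted p = 0.00365), against -0.37 for the brightest, and both were called slower than the median level (adjusted p = 0.0174 and 0.000747). Within arrays, the brightest probe set fell faster than 10346551 by 0.14 log2 per hr and than 10497931 by 0.19, in 3 of 3 time courses each (exact permutation tests chosen after the values were seen, adjusted p = 0.00224 and 0.00185 over 4 such pairs). In replicate 1 the first difference was 0.0075. The mean of the 3 probe sets turned the relative slope of Cflar from -0.053 to 0.058 (adjusted p = 0.0777), so the place of Cflar as the steepest member belongs to 1 probe set.

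Birc2 showed the same split. Its dimmer probe set, 10590799, measured 2.49, 2.28 and 2.35 at 0 min and 1.51, 1.31 and 1.57 at 230 min. Its slope was -0.18 (adjusted p = 0.000216), shallower than that of the brightest probe set by 0.17 in 3 of 3 time courses (exact permutation test, adjusted p = 0.00203), and it failed the level filter. The files do not give the positions of these probe sets within their transcripts, and which transcript forms each one detects was not tested.

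**Figure D5:**
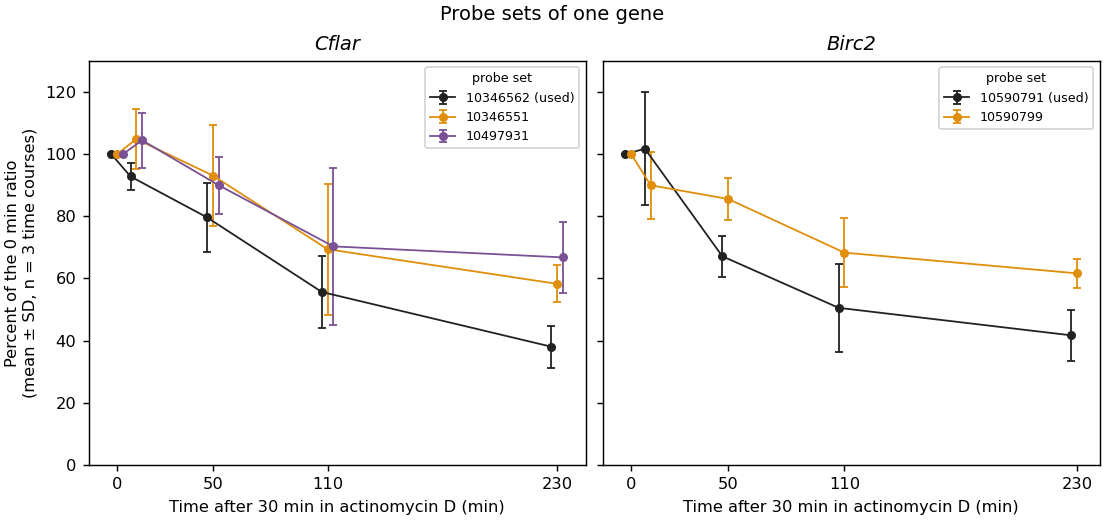
Percent of the 0 min ratio of the same time course against time (min) for the 3 probe sets of Cflar and the 2 of Birc2, as mean ± SD over 3 time courses, with points shifted sideways so that bars do not overlap. At 230 min the brightest probe sets were at 38.0% (Cflar) and 41.7% (Birc2), and each of the others was higher.

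Around these 9 genes, 56 further genes of the TNF receptor and caspase pathways were listed in 7 groups, of which 50 were measured by a probe set with a single symbol and 34 passed the level filter. In the trend 43 of 50 fell and 0 rose, with a median slope of -0.24, beside the 75.8% of all probe sets that fell. Relative to the median level 8 were faster and 26 slower, beside 7.54% and 74.2% of all probe sets. Of the 34 that passed, 8 were faster and 10 slower, beside 15.1% and 48.8% of all probe sets that passed. The listed genes without such a probe set were not analysed here.

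The receptor group held 7 other members of the TNF receptor family, not all of them death receptors. All 7 fell (75.8% of all probe sets did), with a median slope of -0.40. Of the 7, 4 were called faster than the median level (7.54% of all probe sets) and 2 slower (74.2%). The faster ones were Tnfrsf1a, which has a death domain, and Tnfrsf1b, Tnfrsf12a and Ltbr, which lack one. Tnfrsf1a, the main TNF receptor, fell from 19.2 ± 1.60 to 4.64 ± 0.971 (SD, n = 3) with a slope of -0.57 (relative slope -0.25, adjusted p = 2.87e-06). At the other end Tnfrsf25 (death receptor 3) had a slope of -0.16. Of 14 adaptors and signalling proteins 13 fell, 4 were faster and 4 slower. Of all probe sets that passed the level filter, 15.1% were faster and 48.8% slower. Among the listed genes that passed it, slower were 1 of 6 receptors and 2 of 12 adaptors. Traf2, which carries Birc2 and Birc3 to TNF receptors, had the steepest slope of that group at -0.59, falling from 8.90 ± 2.69 to 1.99 ± 0.46 (relative slope -0.27, adjusted p = 2.87e-06), and Traf1, its relative, was at 1.35 ± 0.126 at 0 min and was not called (slope -0.039, adjusted p = 0.259).

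No gene of the remaining groups was called faster than the median level. Of all probe sets 75.8% fell, 7.54% were faster and 74.2% slower. The 4 ligands were dim, none passed the level filter, and 2 of them fell, from Tnf at -0.12 (adjusted p = 0.00387) to Tnfsf10 (TRAIL) at -0.020 (adjusted p = 0.484). Of 6 other caspases 4 fell and 5 were slower, with Casp2 at -0.30 and Casp14, a caspase of the skin, at -0.021 (adjusted p = 0.513). Of 7 further inhibitors and IAP-related genes 5 fell and 4 were slower, with the large IAP Birc6 at -0.32 and Birc7 at -0.049 (adjusted p = 0.116). All 6 mitochondrial genes fell and 2 were slower, with Aifm1 at -0.33, Septin4 at -0.13, Diablo, the antagonist of the IAPs, at -0.25 ± 0.03 and Cycs, cytochrome c, at -0.25 ± 0.06. All 6 caspase targets fell and 5 were slower, with Acin1, a chromatin condensation factor, at -0.34 and Lmna, the nuclear lamin A/C, at -0.14. Some of the slower genes were dim. Among genes that passed the level filter, slower were 2 of 3 caspases, 0 of 3 inhibitors, 1 of 5 mitochondrial genes and 4 of 5 targets. Of all probe sets that passed, 48.8% were slower.

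Genes whose levels ran most like those of Cflar and Birc3, the members with the steepest and the shallowest relative slope, were sought among 10822 probe sets. These probe sets passed the level filter and had a single symbol, and their log2 values were centred on the median level of each array. The genes found are given as a description over the same 15 arrays. Cflar ran closest to Hivep1 (r = 0.839), Sgms1 (r = 0.793) and Apbb2 (r = 0.785), whose slopes were -0.35, -0.38 and -0.36. Birc3 ran closest to the ribosomal protein genes Rplp0 (r = 0.953) and Rpl10 (r = 0.952) and to Pts (r = 0.942), with slopes of -0.053, -0.064 and -0.14. After centring, a probe set that hardly moves follows the fall of the centring value itself, which these points share.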

How the data were processed

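The deposited values are linear ratios: the authors scaled the probe sets of each Affymetrix Mouse Gene 1.0 ST array to its 5th percentile. How probes were summarised, and with which software, is not given in the sources used here. The 25175 probe sets carry no detection p-values. The members, lists and tests were chosen with earlier results of these data known. Of the probe sets 21044 had a single symbol (20959 matched by gene number to GRCm38.p6, used for names and neighbours), 1492 several and 2639 none; the last 2 kinds were not named.

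Log2 ratios were fitted with limma 3.58.1 (R 4.3.3) on hours, or on time as a factor, with the replicate as a block, since the study fitted each time course separately, eBayes and Benjamini-Hochberg adjustment over all probe sets; adjusted p under 0.05 was called. Half-lives, A·exp(-kt) on linear ratios, and exact permutation tests (1728000 orders of times within time courses for each of 36 pairs) used Python 3.11.15, numpy 2.4.6 and scipy 1.17.1 (pandas 2.3.3, matplotlib 3.10.9). Each procedure was tested on simulated data. Named were all 9 members, the steepest and shallowest gene of each of the 7 other groups, Diablo and Cycs, and the 3 genes most like 2 members; the other genes of the rule are not reported here. The number of arrays limits the precision. No sequence is printed, as none of those held bears on decay. Alternatives were other scalings, filters, pseudocounts, blocks, arrays and probe set means.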

Additional observations from a re-analysis of the deposited data

How the results depend on the processing

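Of 103 alternative values of counts, 70 stayed within 1.5 times the count reported. Many of these were a count of 0 that stayed 0, which says little of the members. From 0 to 10 min, for example, the main fit called 0 of all 25175 probe sets. Called as falling were 9 members, 5 with arrays divided by their median and 0 with the 75th percentile, where the slopes of Casp8 (0.043), Casp9 (0.012), Birc3 (0.25), Xiap (0.060) and Fas (0.075) turned positive, as that of Birc3 did with the median (0.12); other apoptosis genes falling were then 8 rather than 43. Members faster than the median level were 0, 5 with the median of all probe sets as reference and 3 with the median change. Of all 25175 probe sets, faster were 1898, 5385 and 3101 with these references in turn, and slower 18687, 10142 and 15019. Arrays divided by their 75th percentile nearly repeat the first of these fits, and arrays divided by their median are the same fit as the second. Such pairs are not separate checks. Slower members were 2, 0 under the level filter (neither member passed it), and 1 without the replicate block, with an intensity trend in eBayes, without the 0 min arrays, without the 2 arrays that stood apart, with either other reference, and without each replicate in turn. Other genes slower were 10 rather than 26 under the level filter.

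Falls from 50 to 110 min numbered 8, 2 to 5 without a replicate, 5 without the 2 arrays, 1 with the median and 0 with the 75th percentile; from 110 to 230 min, 0 to 3 without a replicate. Pairs called without Birc3 and Fas were 0, 0 to 1 without a replicate, and 1 with a pseudocount of 1 or without the 2 arrays. Reliable half-lives were 3, 2 with the mean of all probe sets of a gene, and 1 without the 2 arrays. They were 0 with the median, the 75th percentile, a constant floor or no 0 min arrays. Without a replicate they were 0 to 3, where the same fits were only recounted.

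Relative slopes changed sign with the mean of all probe sets for Cflar (0.058) and Birc2 (0.056), and with a pseudocount of 1 for Birc2 (0.029) and Fadd (0.016). Casp8 turned without the 0 min arrays (-0.0042), with the median of all probe sets (-0.094) and with the median change (-0.015). Casp9 turned without the 230 min arrays (-0.0018), with those references (-0.12 and -0.046) and without replicate 1 (-0.0064, and up to 0.040 without another replicate). Xiap (-0.077) and Fas (-0.061) turned with the median of all probe sets. The cause was not tested.

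Without the replicate block 8 members were called falling, all but Birc3 (adjusted p = 0.0520). Deviations from the mean of each time correlated above 0.1 between same-numbered arrays in 18 of 30 pairs (median 0.23) and between others in 11 of 60 (median -0.13), so the data alone do not establish the pairing. Dim probe sets near 1.00 limit what can be said of Birc3 and Fas.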
